A study of Mus musculus with 38 samples.

Results

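Ribosome footprints were followed on 8 genes of the actin cytoskeleton, chosen by name from the 22401 genes of the count tables. They encode the cytoplasmic actins β-actin (Actb) and γ-actin (Actg1), the filament-severing protein cofilin (Cfl1), the actin monomer-binding profilins (Pfn1 and Pfn2), and the spine proteins drebrin (Dbn1), neurabin (Ppp1r9a) and spinophilin (Ppp1r9b). All 8 passed the filter on low counts in every comparison. The data are PL-Ribo-seq libraries from primary mouse cortical neurons, in which a lentivirus delivered the biotin ligase TurboID. By the methods, the constructs were doxycycline-inducible. PSD95-TurboID is carried to postsynapses by elements of PSD95, and Pan-TurboID has no such element. Lysates were digested with nuclease and single ribosomes were isolated on a sucrose gradient, and from every culture a small part of these ribosomes (input) and the biotinylated ribosomes that streptavidin caught from the remainder (pulldown) were sequenced, 19 of each kind in 14 groups.

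By the labels all cultures received biotin for 30 min and cycloheximide, which stops elongating ribosomes, for 2 min, whereas the methods give a shorter biotin time for the DHPG cultures. The KCl experiment held 24 libraries, with 3 replicates of input and pulldown for both ligases at rest and after 1 h in 55 mM KCl, which depolarizes neurons. By the methods, tetrodotoxin and DL-AP5, drugs that silence neurons, were given for 2 h before activation. After KCl, fresh medium with both drugs and biotin followed for 30 min. By the methods, cycloheximide was given for 2 min before the biotin, so ribosomes were stopped ahead of the labelling time and not at its end. The DHPG experiment held 6 PSD95-TurboID libraries, 3 inputs and 3 pulldowns, from neurons given 100 µM DHPG for 10 min, a drug that activates metabotropic glutamate receptors of group I. The siRNA experiment held 8 PSD95-TurboID libraries with 2 replicates per group, resting or given KCl, after 72 h with 20 nM siRNA against the translation initiation factor eIF4G2. The descriptions of the DHPG inputs and of the siRNA libraries say cytosol, whereas their lentivirus label says PSD95-TurboID, and the lentivirus label was used here. No resting group of the DHPG experiment and no group without the eIF4G2 siRNA of the siRNA experiment was analysed here, so DHPG and the siRNA were set against the KCl experiment, and treatment and experiment cannot be told apart in those comparisons.

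Actin filaments fill the dendritic spine, the small protrusion that carries most excitatory synapses, and spines change shape as filaments grow and are cut. Profilins hand monomers to growing filament ends, cofilin cuts old filaments, and drebrin binds along filaments and stabilizes them. Neurabin and spinophilin are related scaffolds that bind actin filaments and bring protein phosphatase 1 into the spine. The mRNA of β-actin is a classic case of an mRNA that is transported into neuronal processes and translated there.

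Near-identical copies limit what a short footprint can assign, so the first 30 coding bases of the paired genes are shown from the mm10 assembly, 5′ to 3′ in the sense of the gene, with capitals where a gene differs from its partner. Actb and Actg1 differ at 8 of these bases, Pfn1 and Pfn2 at 9, and Ppp1r9a and Ppp1r9b at 11. The drebrin A exon, discussed with Dbn1, is shown by its first 30 bases without capitals.
Actb, chr5:142905657-142905686, minus strand: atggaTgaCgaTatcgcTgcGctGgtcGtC
Actg1, chr11:120348062-120348091, minus strand: atggaAgaAgaAatcgcCgcActCgtcAtT
Pfn1, chr11:70654451-70654480, minus strand: atggccggGtggAaCGCctacAtCgaCaGc
Pfn2, chr3:57847453-57847482, minus strand: atggccggTtggCaGAGctacGtGgaTaAc
Ppp1r9a, chr6:4905447-4905476, plus strand: atgTtgaagGcggaATctTCAgggGAGCgg
Ppp1r9b, chr11:94991548-94991577, plus strand: atgAtgaagAcggaGCctCGGgggCCCGgg
Dbn1 drebrin A exon, chr13:55476744-55476773, minus strand: gtcgtccgtactgccctttcataaaggcat

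Over their whole coding sequences (CDSs) of 1128 bases each, Actb and Actg1 differed at 128 bases (88.7% identity). Of the 983 windows of 30 bases that lie inside a single coding exon, every Actg1 window had an exact copy elsewhere in the genome, against 433 (44%) of the Actb windows. The first coding exon of Actb held no copied window among 94. Of the Cfl1 windows, 273 of 411 (66.4%) had a copy, whereas Pfn1, Pfn2, Ppp1r9a and Ppp1r9b had none and Dbn1 had 7 of 1686 (0.415%). How the authors treated reads that align in several places is not given in the sources used here, so the levels of Actg1 and Cfl1, and in part Actb, are uncertain in absolute terms. On the opposite strand of Cfl1 lies Snx32, and whether the counts used strand is not given either.

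The counts in coding segments of the longest transcripts summed to between 2048604 and 14646402 per library. Replicates 1 and 2 of the KCl-treated PSD95-TurboID pulldown were the least alike pair within a group (r = 0.827 of log values, against up to 0.995 elsewhere). Replicate 3 correlated at 0.913 with replicate 1 and at 0.924 with replicate 2. By chi-square per gene, which rises with depth, replicate 2, the deepest of that group (7330161 coding counts), differed most from the others (59.4 and 36.6, against 18.5 between replicates 1 and 3). Counts of Eif4g2 were 284 to 337 CPM (counts scaled to each library's coding total) in siRNA inputs and 444 to 811 in all others. Dlg4, whose sequence the bait carries, reached 337 to 5220 CPM in the PSD95-TurboID pulldowns, DHPG and siRNA libraries included, against 15.7 to 50.1 in the Pan-TurboID pulldowns. Summed neuronal markers stood at 5907 to 9952 CPM in the inputs, and microglial markers at no more than 7.76. Markers of other glia were higher in the inputs, 219 to 1120 CPM for astrocytes and 43.4 to 579 CPM for the oligodendrocyte lineage.

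The 8 genes together made up 0.917% to 1.68% of the coding counts in inputs and 0.528% to 0.982% in pulldowns. In resting PSD95-TurboID inputs, Actb had the highest level per length, 5620 CPM per kb of CDS. Cfl1 followed with 1834, Actg1 with 1055, Pfn2 with 569, Pfn1 with 436 and Dbn1 with 393. Spinophilin (111 CPM per kb) and neurabin (27.3 CPM per kb) were the lowest of the 8, so that the levels of these genes spanned a wide range within the same libraries.

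**Figure D1:**
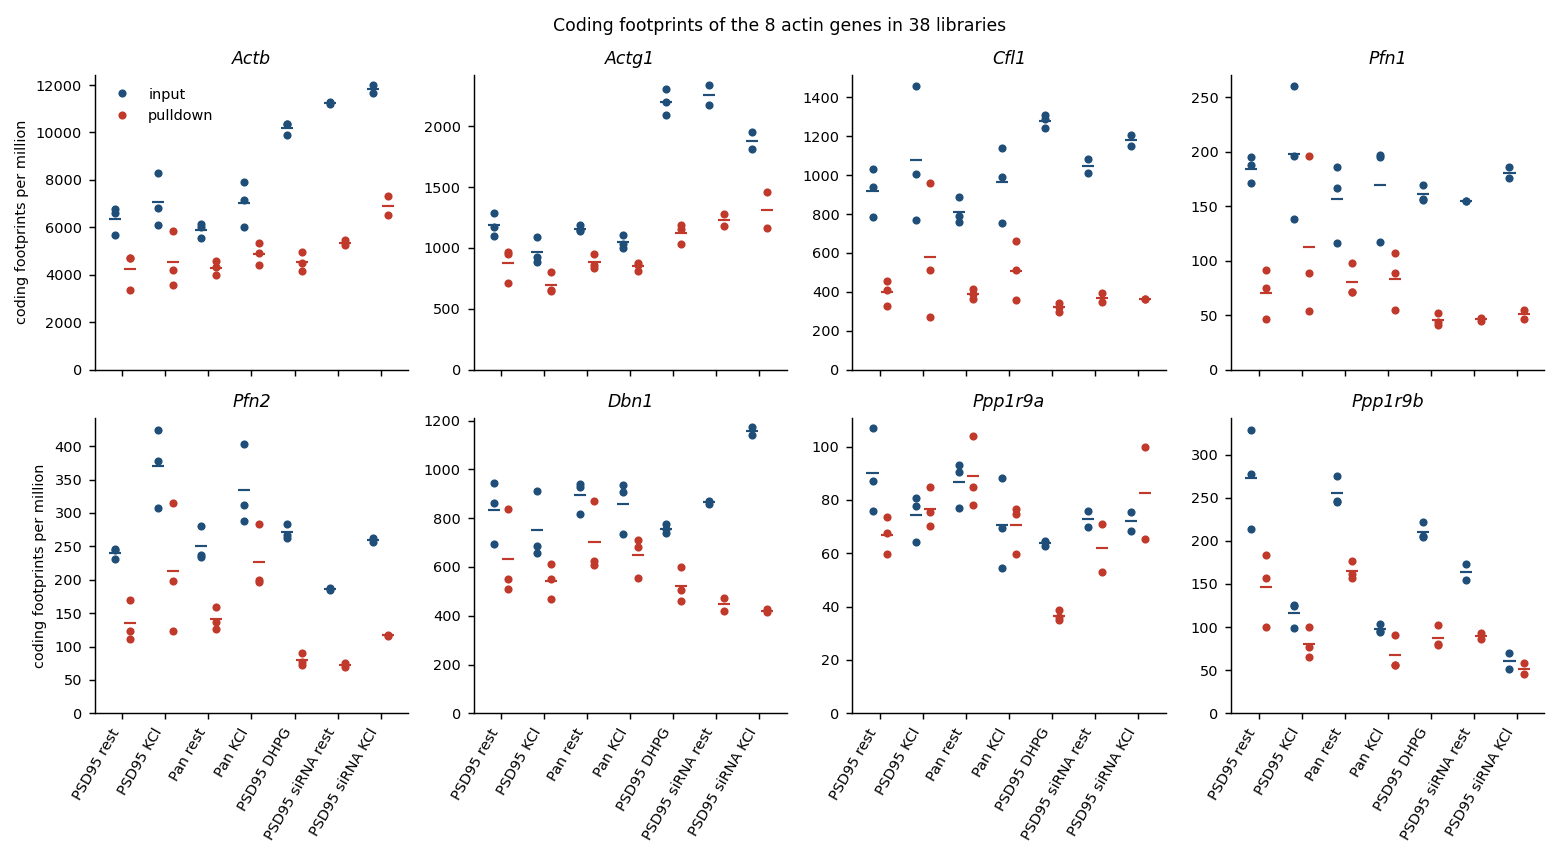
Each panel shows 1 gene, with footprints in CPM on a linear axis that starts at 0 and the 7 culture conditions along the bottom. Points are libraries (blue inputs, red pulldowns) and bars are group means. Actb inputs of the DHPG and siRNA experiments lie at 9875 to 12009, above all inputs of the KCl experiment (5556 to 8277), and Ppp1r9b falls with KCl in all 3 pairs of input groups.

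Across the input groups, β-actin was highest in the siRNA experiment, with 11657 and 12009 CPM after KCl and 11214 and 11278 CPM at rest. The DHPG inputs followed with 10356, 10341 and 9875 CPM. The 4 input groups of the KCl experiment overlapped with their neighbours in order and had means from 5897 to 7058 CPM. γ-actin had the same upper groups, 2340 and 2177 CPM in resting siRNA inputs and 2305, 2090 and 2203 CPM in DHPG inputs, which overlapped. The KCl-treated siRNA inputs (1811 and 1952 CPM) came below those and above all inputs of the KCl experiment (883 to 1291 CPM).

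For cofilin, only the DHPG inputs (1243 to 1307 CPM) did not overlap with the next group in order, and the 19 inputs ranged from 756 to 1458 CPM with a median of 1010. The input groups of Pfn1 (116 to 260 CPM) and of Ppp1r9a (54.5 to 107 CPM) each overlapped with their neighbours throughout. Drebrin was highest in KCl-treated siRNA inputs, 1139 and 1172 CPM, and its other input groups overlapped in order between 659 and 944 CPM. Pfn2 was highest in the KCl-treated inputs of both ligases (288 to 424 CPM) and lowest in the resting siRNA inputs (184 and 188 CPM). Spinophilin had the widest relative range of the 8 genes in inputs, from 51 CPM in a KCl-treated siRNA input to 328 CPM in a resting PSD95-TurboID input.

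The pulldown asks which mRNAs were being translated on the ribosomes that the ligase had reached. Footprints of these genes were lower in the pulldown than in the input of the same culture in 143 of 152 comparisons of a gene in a culture. The same genes recur in every culture, so these comparisons are not independent, and the matching share over all genes is not given. With coding totals as the scale, the median fitted log2 change of all genes was itself below 0, from −0.06 in KCl-treated PSD95-TurboID to −0.16 in DHPG cultures. Without adjustment for CDS length, cofilin and the profilins, the genes with the shortest CDSs of the 8, had the lowest mean log2 CPM ratios over the 19 cultures, −1.32 ± 0.42 (SD) for Cfl1, −1.36 ± 0.47 for Pfn1 and −1.04 ± 0.45 for Pfn2. Actb (−0.73 ± 0.28), Actg1 (−0.56 ± 0.27), Dbn1 (−0.60 ± 0.42) and Ppp1r9b (−0.73 ± 0.40) lay closer to 0. Ppp1r9a differed least, at −0.19 ± 0.38, with 11 of 19 cultures below 0, against 18 for Ppp1r9b and all 19 for each of the other genes. This order depended on length: with a trend with CDS length removed in resting PSD95-TurboID cultures, the fitted values were −1.16 for Ppp1r9b and −0.78 for Ppp1r9a, against −0.50 for Pfn1, −0.42 for Cfl1 and 0.06 for Pfn2.

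**Figure D2:**
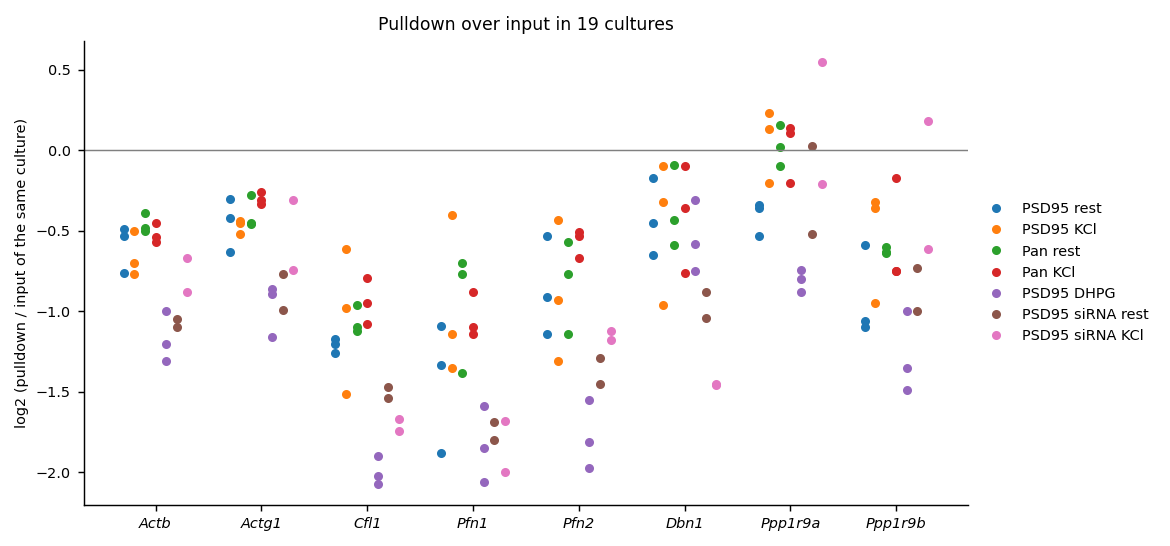
The log2 ratio of pulldown to input CPM is plotted for each gene, with 1 point per culture (n = 19) coloured by condition and a line at 0. Cfl1, Pfn1 and Pfn2 lie below 0 in all cultures, while Ppp1r9a lies between −0.53 and 0.55 outside the DHPG cultures. In resting PSD95-TurboID cultures the fitted Pfn2 value turned to 0.06 once a trend with CDS length was removed.

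In resting PSD95-TurboID cultures, β-actin stood at 6592, 6756 and 5671 CPM in the inputs and at 4687, 4687 and 3359 CPM in the pulldowns. The groups did not overlap, and the fitted log2 fold change was −0.54 (SE 0.18, adjusted p = 0.0293 in the quasi-likelihood test of edgeR, adjusted over all genes by Benjamini-Hochberg, as for every edgeR adjusted p). Actg1 stood at 1176, 1291 and 1102 CPM in the inputs and 954, 966 and 710 CPM in the pulldowns, also without overlap, and missed the threshold, at −0.41 (SE 0.16, adjusted p = 0.0615 in edgeR). With each culture as a block Actg1 passed as well (−0.42, edgeR adjusted p = 0.00184).

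Cofilin footprints stood at 941, 1030 and 785 CPM in the resting PSD95-TurboID inputs and 411, 457 and 329 CPM in the pulldowns, a log2 fold change of −1.17 (SE 0.29, edgeR adjusted p = 0.00759). Pfn1 stood at 188, 195 and 171 CPM in inputs and 74.8, 91.2 and 46.4 CPM in pulldowns, a log2 fold change of −1.33 (SE 0.33, edgeR adjusted p = 0.00832). Every input of both genes lay above every pulldown. Pfn2, the profilin form typical of neurons, had 246, 245 and 231 CPM in inputs against 170, 111 and 123 CPM in pulldowns (log2 fold change −0.81, SE 0.23, edgeR adjusted p = 0.0137).

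Spinophilin stood at 214, 328 and 278 CPM in the inputs and 100, 157 and 184 CPM in the pulldowns, without overlap, and was lower by a log2 value of −0.86 (SE 0.23, edgeR adjusted p = 0.0108). Its relative neurabin had 75.7, 87 and 107 CPM in inputs and 59.7, 67.6 and 73.7 CPM in pulldowns, also without overlap, and missed the threshold, at −0.39 (SE 0.22, edgeR adjusted p = 0.191). Drebrin, with 695, 944 and 864 CPM in inputs and 510, 838 and 549 CPM in pulldowns, missed it too, at −0.36 (edgeR adjusted p = 0.241), and its groups overlapped. In all, 5 of the 8 genes were lower, where 25% of the 13019 genes tested passed (11.5% higher and 13.5% lower). With each culture as a block, which pairs input and pulldown of the same lysate, all 8 were lower, against 22.6% of all genes (edgeR adjusted p from 1.83e-07 for Cfl1 to 0.0423 for Ppp1r9a). With replicate 1 of every group left out 4 of the 8 passed and 22.4% of all genes, without replicate 2 it was 2 and 8.66%, and without replicate 3 it was 0 and 0%, with 2821 genes at an unadjusted p under 0.05 in edgeR. When the trend of each library with CDS length was removed, 2 of the 8 were lower, against 7.52% of all genes, Ppp1r9b (log2 fold change −1.16, edgeR adjusted p = 0.00356) and Ppp1r9a (−0.78, 0.0154), whereas Cfl1 was at −0.42 (adjusted p = 0.109) and Pfn2 at 0.06.

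The same comparison in KCl-treated PSD95-TurboID cultures gave 3 lower genes, Actb (log2 fold change −0.60, SE 0.18, edgeR adjusted p = 0.0311), Cfl1 (−0.86, SE 0.28, adjusted p = 0.0469) and Pfn2 (−0.76, SE 0.22, adjusted p = 0.0298), where 12.6% of genes passed (8.21% higher and 4.39% lower). Cfl1 stood at 771, 1458 and 1004 CPM in these inputs and 270, 958 and 511 CPM in the pulldowns, so that the groups overlapped although each pulldown was below its own input. Neurabin had 64.3, 80.7 and 77.6 CPM in inputs and 75.3, 70.1 and 84.9 CPM in pulldowns (log2 fold change 0.09, adjusted p = 0.808). With the culture as a block 7 of the 8 were lower, all but Ppp1r9a, against 17.4% of all genes. Without replicate 1 none of the 8 passed, where 4.58% of all genes did, and without replicate 3 none, where 0.0227% did. Without replicate 2 it was 4, where 13% of all genes passed, and with the length trend removed none, where 5.28% did.

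In resting Pan-TurboID cultures, 2 of the 8 genes were lower in the pulldown, Cfl1 (log2 fold change −1.01, SE 0.29, edgeR adjusted p = 0.0331) and Pfn2 (−0.78, SE 0.22, adjusted p = 0.0345), where 9.6% of genes passed (4.55% higher and 5.05% lower). Cfl1 stood at 792, 888 and 758 CPM in those inputs and 365, 414 and 390 CPM in the pulldowns, without overlap, and neither gene passed without replicate 2 (−0.96 and −0.78) or without replicate 3 (−1.07 and −0.63), where edgeR called 0 genes of the whole table (2463 and 1937 had an unadjusted p under 0.05). Cfl1 and Pfn2 did not pass with the length trend removed either, and their highest values under any alternative were −0.37 and −0.04. In KCl-treated Pan-TurboID cultures none of the 8 passed edgeR's test, where 8.83% of genes did (5.19% higher and 3.64% lower). Unadjusted p in edgeR was under 0.05 there for 5 of the 8 (Actb, Cfl1, Pfn1, Pfn2 and Ppp1r9b), as for 3820 of the 13019 genes tested. DESeq2 called 3 lower (against 8.01% of all genes), and Cfl1 had −0.87 in edgeR (SE 0.29, adjusted p = 0.0525). With the culture as a block, 6 of the 8 were lower in resting Pan-TurboID cultures, against 17.5% of all genes, and 5 in KCl-treated ones, against 15.6%.

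Whether the pulldown ratio differed between the ligases was tested as the difference of PSD95-TurboID and Pan-TurboID ratios over rest and KCl. The differences in log2 ratio lay between −0.22 (Ppp1r9a, SE 0.22) and −0.07 (Cfl1, SE 0.28, and Dbn1, SE 0.22), and none of the 8 genes passed. In edgeR 0.00768% of all genes, a single gene, passed, 169 genes had an unadjusted p under 0.05, and DESeq2 called 2. None of the 8 had an unadjusted p under 0.05, and the SEs of 0.16 to 0.33 leave differences of that size undetectable. The KCl change of the PSD95-TurboID ratio gave no called gene (0% of all genes in edgeR, 236 with unadjusted p under 0.05, 1 in DESeq2), with member values from −0.08 for Dbn1 (SE 0.32) to 0.57 for Pfn1 (SE 0.46).

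Depolarization by KCl was then compared with rest in the inputs of both ligases, 6 against 6 libraries. The fit took these libraries as independent, and whether inputs of both ligases with the same replicate number share a preparation was not tested. Spinophilin fell and Pfn2 rose, and they were the only genes of the 8 to pass, where 15.4% of all genes did (6.32% higher and 9.03% lower). Ppp1r9b had 214, 328 and 278 CPM in resting PSD95-TurboID inputs and 126, 124 and 98.7 CPM after KCl. In Pan-TurboID inputs it had 246, 275 and 245 CPM at rest and 95.3, 94 and 103 CPM after KCl. No KCl-treated library reached the lowest resting library, and the log2 fold change was −1.28 (SE 0.16, edgeR adjusted p = 3.31e-06), with values from −1.45 to −1.11 when a replicate was left out. With the replicate number as a block it was −1.27 (edgeR adjusted p = 7e-07). Footprint counts do not separate the amount of an mRNA from its translation, and mRNA levels were not analysed here. By RNA in situ hybridization, the authors reported that the Ppp1r9b transcript decreased upon activation.

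Pfn2 stood at 246, 245 and 231 CPM in resting PSD95-TurboID inputs and 308, 424 and 378 CPM after KCl. In Pan-TurboID inputs it stood at 237, 234 and 280 CPM at rest and 288, 312 and 403 CPM after KCl. The groups did not overlap for either ligase, and the log2 fold change was 0.55 (SE 0.16, edgeR adjusted p = 0.0183). It passed without replicate 1 (0.59), not without replicate 2 (0.58) or replicate 3 (0.52), and with the length trend removed it was 0.28 (adjusted p = 0.15). With the replicate number as a block it was 0.55 (edgeR adjusted p = 0.0122). Pfn1 (log2 fold change 0.14, SE 0.23, edgeR adjusted p = 0.744) spanned 116 to 195 CPM at rest and 117 to 260 CPM after KCl, so the groups overlapped.

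β-actin was at 6091, 8277 and 6807 CPM in KCl-treated PSD95-TurboID inputs and 6031, 7928 and 7139 CPM in KCl-treated Pan-TurboID inputs. These overlapped with the resting inputs, and the change was 0.23 (SE 0.13, edgeR adjusted p = 0.226). γ-actin was at 883, 1093 and 923 CPM and at 1002, 1105 and 1035 CPM after KCl in PSD95-TurboID and Pan-TurboID inputs, against 1102 to 1291 and 1136 to 1185 CPM at rest. Every KCl-treated γ-actin value lay below every resting value of its ligase, although the change of −0.19 (SE 0.11) did not pass (edgeR adjusted p = 0.28). Cfl1 (0.26, SE 0.20), Dbn1 (−0.07, SE 0.16) and Ppp1r9a (−0.25, SE 0.15) did not pass, with edgeR adjusted p of 0.419, 0.831 and 0.289.

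In PSD95-TurboID pulldowns, spinophilin went from 100, 157 and 184 CPM at rest to 65.6, 99.9 and 77 CPM after KCl, a log2 fold change of −0.84 (SE 0.23, edgeR adjusted p = 0.028). It was the only gene of the 8 to pass there, where 6.6% of genes did (3.32% higher and 3.28% lower), and the groups just did not overlap. In Pan-TurboID pulldowns it went from 162, 177 and 157 CPM to 56.5, 56 and 91.2 CPM, a log2 fold change of −1.24 (SE 0.23, edgeR adjusted p = 0.00148), again as the only one of the 8, where 5.03% passed (1.87% higher and 3.16% lower). Pfn2 had values of 0.68 (SE 0.23) in PSD95-TurboID and 0.74 (SE 0.22) in Pan-TurboID pulldowns that did not pass (edgeR adjusted p = 0.0678 and 0.0539). The PSD95-TurboID call of Ppp1r9b was kept without replicate 1 (−0.98, with Cfl1 and Pfn2 then also past the threshold), not without replicate 2 (−0.94) or replicate 3 (−0.63), and with the length trend removed it was −0.63 (adjusted p = 0.13). The Pan-TurboID call was lost without replicate 2 (−1.03, adjusted p = 0.116), and Pfn2 passed there without replicate 1 (0.84). With the replicate number as a block, Pfn2 passed in Pan-TurboID pulldowns as well (0.73, adjusted p = 0.0368).

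**Figure D3:**
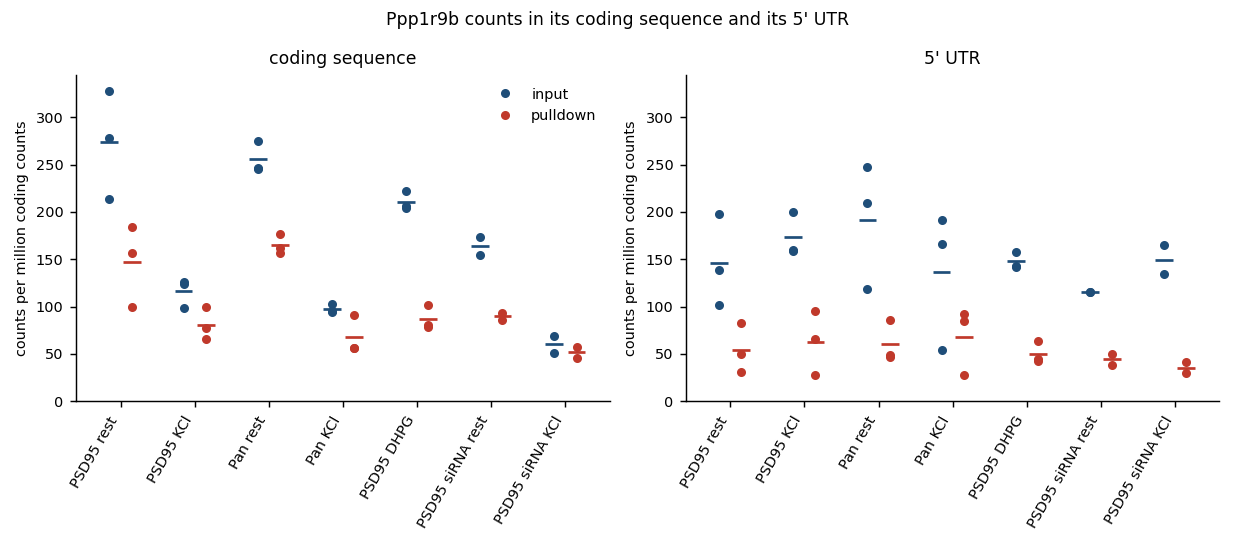
Ppp1r9b footprints in CPM are shown for its coding sequence (left) and its 5′ UTR (right), on the same linear scale, with points for libraries and bars for group means. The coding counts of inputs fall with KCl, from a mean of 273 to 116 with PSD95-TurboID, whereas the 5′ UTR counts overlap between rest and KCl in those inputs.

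The 5′ UTR of spinophilin is 513 bases long and holds 3 ATG triplets, against 1 for Pfn2, 2 for Ppp1r9a and none for the other 5 genes. On the same CPM scale its 5′ UTR counts were 102, 139 and 198 in resting PSD95-TurboID inputs and 160, 200 and 159 after KCl. In Pan-TurboID inputs they were 119, 209 and 247 CPM at rest and 54.1, 191 and 166 CPM after KCl. The groups overlapped for both ligases.

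As a share of 5′ UTR and coding counts together, the Ppp1r9b 5′ UTR held 32.3%, 29.8% and 41.6% in resting PSD95-TurboID inputs and 55.8%, 61.7% and 61.7% after KCl. In Pan-TurboID inputs it held 32.7%, 43.2% and 50.2% at rest and 36.2%, 67.1% and 61.7% after KCl. The share was 19.1 percentage points higher with KCl in inputs and 18.2 points higher in pulldowns (two-sided exact permutation within ligase, 400 relabellings, smallest possible p = 0.005, p = 0.015 for each). Neither passed after adjustment over the 7734 genes with at least 20 counts in every library (adjusted p = 0.139 and 0.371), where 0% of genes passed in inputs and 0% in pulldowns. The median change of all genes was 1.56 points in inputs and 1.61 points in pulldowns, and 1469 and 683 genes had an unadjusted p under 0.05 in the exact permutation test. In the siRNA inputs the share was 39.9% and 42.5% at rest and 65.9% and 76.4% after KCl. Because the authors counted the 5′ end of a footprint without an offset, ribosomes at the start codon fall in the 5′ UTR counts, and start-codon and upstream ribosomes cannot be told apart in them.

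Ratios between related genes in the same library do not depend on how libraries are scaled. The ratio of Actb to Actg1 was 5.61, 5.23 and 5.14 in resting PSD95-TurboID inputs and 6.9, 7.57 and 7.37 after KCl. It was 5.21, 5.41 and 4.69 in resting Pan-TurboID inputs and 6.02, 7.18 and 6.9 after KCl. The groups did not overlap, and the log2 ratio was higher with KCl by 0.421 in inputs (0.45 and 0.391 within PSD95-TurboID and Pan-TurboID) and by 0.319 in pulldowns. The ratios were chosen after the values of their genes were seen and are given as a description, with no test. The input value stayed between 0.362 and 0.505 when a replicate was left out.

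The ratio of Ppp1r9b to Ppp1r9a restates the lower Ppp1r9b level after KCl against its relative. It was 2.83, 3.77 and 2.6 in resting PSD95-TurboID inputs and 1.97, 1.54 and 1.27 after KCl, and in Pan-TurboID inputs it was 3.2, 3.03 and 2.63 at rest and 1.08, 1.73 and 1.48 after KCl. The difference in log2 ratio was −1.01 in inputs and −1.01 in pulldowns, without overlap within either ligase. In siRNA cultures the input ratios were 2.48 and 2.05 at rest and 0.918 and 0.745 after KCl, and these did not overlap. The ratio of Pfn2 to Pfn1 was higher with KCl by 0.429 on the log2 scale in inputs and by 0.354 in pulldowns, with overlap between rest and KCl in Pan-TurboID inputs and in the pulldowns of both ligases.

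**Figure D4:**
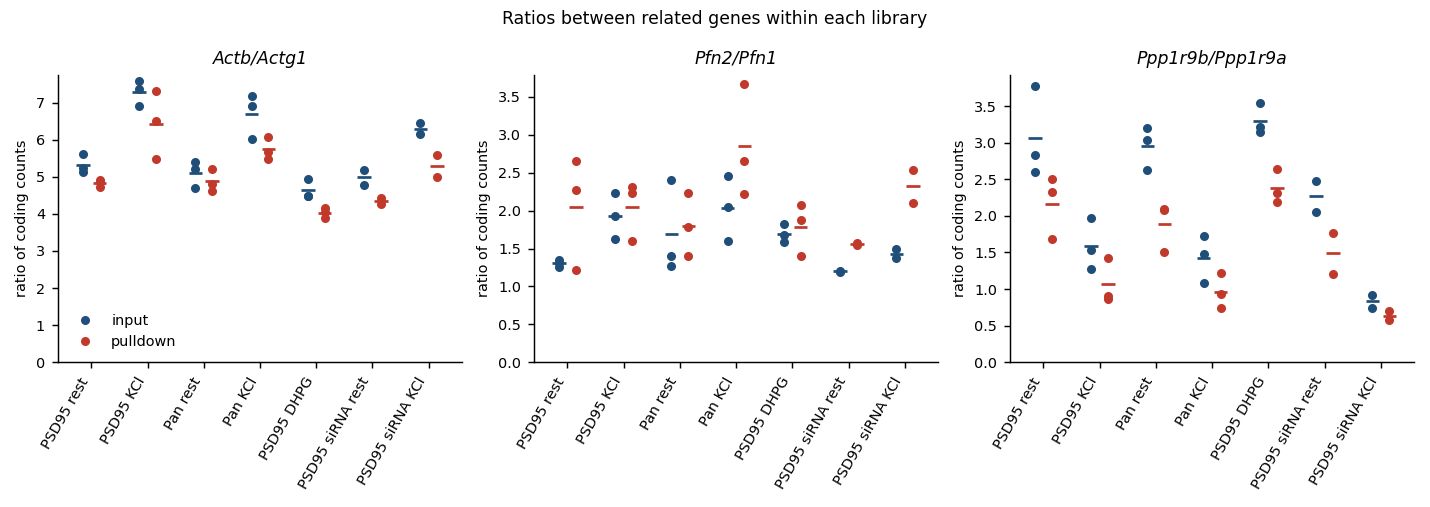
The panels show the ratio of coding counts of related genes in each library for the 7 conditions, on linear axes from 0, with inputs in blue, pulldowns in red and bars for group means. With KCl, Actb over Actg1 is higher in inputs of both ligases (means 5.33 to 7.28 with PSD95-TurboID and 5.10 to 6.70 with Pan-TurboID) and Ppp1r9b over Ppp1r9a is lower, whereas Pfn2 over Pfn1 overlaps between conditions for Pan-TurboID.

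The position of footprints within the coding sequence also differed between inputs and pulldowns. The coding segments that hold any of the first 50 coding bases, called start-proximal here, made up 123 of 1128 bases (10.9%) of Actb and Actg1. For Actb they held 35.8%, 41.6% and 42.2% of the coding counts in resting PSD95-TurboID inputs and 16.3%, 28.5% and 14.8% in the pulldowns of the same cultures. The input and pulldown shares did not overlap. The start-proximal segment of Actb held no copied window, whereas 41.7% to 66% of the windows in its other coding segments had a copy elsewhere, so the size of this share depends on how reads that align in several places were treated, and a share above that of length would also arise if they were left out.

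Over the 12 cultures of the KCl experiment, the start-proximal share of Actb was lower in the pulldown in 12 of 12, by a mean of 20.4 percentage points (difference −20.4, p = 0.000488, two-sided exact permutation by sign flips, the smallest p it can give). The test takes the 12 cultures as independent. By the methods, samples of a biological replicate were processed together, so the p of this test can be too small. Actg1 (−17.8 points), Pfn2 (−17.9), Cfl1 (−8.13) and Dbn1 (−3.58) were also lower in 12 of 12 cultures with the same p. Pfn1 (−7.00 points, 11 of 12, exact permutation p = 0.00146) and Ppp1r9a (−10.4 points, 11 of 12, p = 0.00537) were lower as well. All 7 passed after adjustment over the 6778 genes with at least 20 coding counts in every library (adjusted p from 0.0011 to 0.00784), and Ppp1r9b did not (−4.05 points, 9 of 12, exact permutation p = 0.0884). This lower share was general: 80.9% of those genes were lower in the pulldown by the same test, with a median difference of −8.76 points over all of them. Cfl1, Pfn1, Dbn1 and Ppp1r9b lay nearer to 0 than that median. In the 7 DHPG and siRNA cultures, which were not tested, the share was lower in the pulldown in all 7 for Actb, Actg1, Cfl1, Pfn2 and Dbn1, in 5 for Ppp1r9a, and in 4 each for Pfn1 (−16.0 to 10.9 points) and Ppp1r9b. The start-proximal segments cover very different parts of the genes, 4.05% of the Dbn1 CDS and 62.1% of the Cfl1 CDS, so the shares are not comparable between genes.

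Over the same 12 cultures, the 5′ UTR share of counts was lower in the pulldown for all 8 genes, as for 84.9% of the 7734 genes tested, with a median difference of −9.82 points over all genes. The differences ran from −1.96 points for Cfl1 (10 of 12 cultures, exact permutation p = 0.0376, adjusted p = 0.0445 over all genes) to −13.9 points for Pfn2 (12 of 12, p = 0.000488, adjusted p = 0.000962). The test again takes the cultures as independent. Ppp1r9b had −12.3 points, Dbn1 −7.73, Pfn1 −7.61, Ppp1r9a −6.12, Actb −5.63 and Actg1 −3.36. In the 7 DHPG and siRNA cultures, which were not tested, it was lower in the pulldown in 7 of 7 for Actb, Dbn1, Ppp1r9a and Ppp1r9b and in 6 for Pfn2. There it was lower in only 3 cultures for Actg1, 3 for Pfn1 and 2 for Cfl1, with differences for Cfl1 between −2.30 and 4.93 points.

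**Figure D5:**
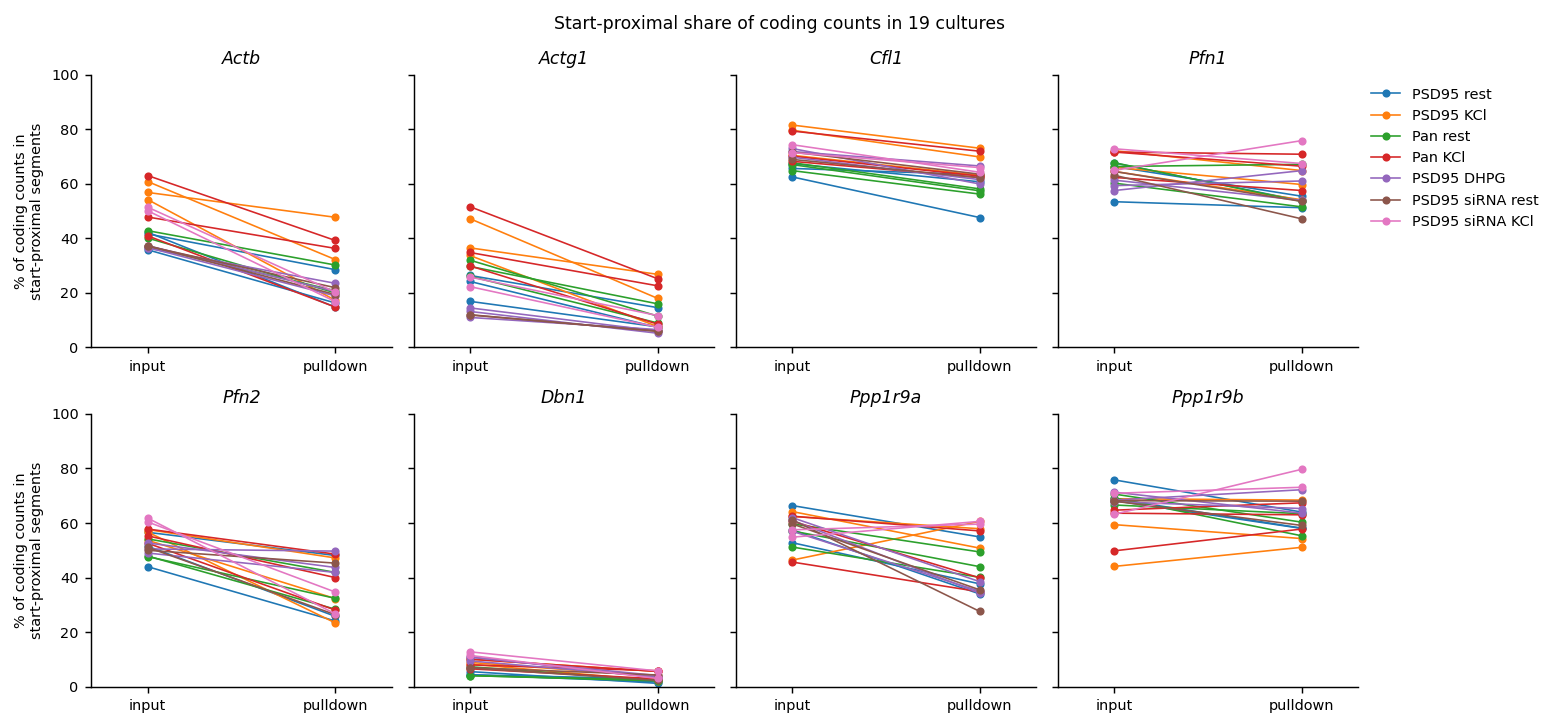
Lines join the input and the pulldown of each culture (n = 19, coloured by condition), and the vertical axis is the percent of a gene's coding counts in the start-proximal segments, from 0 to 100. The lines fall in all 12 cultures of the KCl experiment for Actb, Actg1, Cfl1, Pfn2 and Dbn1, and fall in 9 of 12 for Ppp1r9b.

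The start-proximal share was also compared between KCl and rest. For Actb it was 54.2%, 56.8% and 60.8% in KCl-treated PSD95-TurboID inputs and 40.9%, 47.8% and 63% in KCl-treated Pan-TurboID inputs, against 36.9%, 42.8% and 40.1% in resting Pan-TurboID inputs. The mean difference from rest was 14 points (17.4 for PSD95-TurboID and 10.6 for Pan-TurboID, exact permutation p = 0.01). The differences were 13.1 points for Actg1, 9.03 for Cfl1, 3.71 for Dbn1 and −11.5 for Ppp1r9b, with unadjusted exact permutation p of 0.005 for Cfl1 and 0.01 for the others. None passed after adjustment over the 6778 genes (adjusted p from 0.072), where 0% of them did (1571 at an unadjusted p under 0.05). The median of all genes was 3.47 points, and the value of Ppp1r9b lay on the other side of 0, as did 18.9% of genes. In pulldowns, where the median of all genes was 2.23 points and again 0% passed (836 at an unadjusted p under 0.05), the 8 genes ran from 0.477 points for Ppp1r9b to 9.91 points for Cfl1 (exact permutation p = 0.01, adjusted p = 0.245).

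The gene levels were also fitted without the start-proximal segments. In KCl-treated inputs Actb was then at −0.06 (edgeR adjusted p = 0.817), Actg1 fell by 0.37 on the log2 scale (edgeR adjusted p = 0.0448) and Ppp1r9b fell by 0.72 (adjusted p = 0.0083). Pfn2 was at 0.50 (adjusted p = 0.0577). In resting PSD95-TurboID cultures the pulldown values were then −1.15 for Cfl1 (adjusted p = 0.00473) and −0.39 for Actb (adjusted p = 0.111), and 2 of the 8 genes, Cfl1 and Pfn1, were lower, against 12% of all genes.

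In the siRNA experiment, the pulldown fell below the input for 7 of the 8 genes at rest, where 45.5% of genes passed (22.1% higher and 23.4% lower). The values ran from −0.76 for Ppp1r9b (SE 0.16) to −1.62 for Pfn1 (SE 0.15), and Ppp1r9a was at −0.10 (SE 0.19, edgeR adjusted p = 0.702). This order did not hold with the length trend removed, where all 8 were lower and 33% of all genes passed in either direction, with Ppp1r9b at −1.11, Pfn1 at −0.76, Ppp1r9a at −0.63 (edgeR adjusted p = 0.0101) and Pfn2 at −0.39. After KCl 6 of the 8 were lower, where 48.8% of genes passed (24% higher and 24.8% lower), and Ppp1r9a (0.29, adjusted p = 0.244) and Ppp1r9b (−0.15, adjusted p = 0.532) did not pass. Ppp1r9b passed with the length trend removed (−0.55, edgeR adjusted p = 0.0198) and without start-proximal segments (−0.92, adjusted p = 0.0124), and it was at 0.28 without replicate 1 and −0.50 without replicate 2, passing in neither. The Pfn2 value after KCl, −1.05 (SE 0.12), was 0.03 with the length trend removed. At rest Ppp1r9b lost its call without replicate 1 (−0.64), and after KCl Actg1 lost its call without replicate 2 (−0.20) and Ppp1r9a passed without replicate 1 (0.64).

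Drebrin changed its pulldown ratio with KCl in these cultures. Its inputs stood at 860 and 871 CPM at rest and 1139 and 1172 CPM after KCl, while its pulldowns stood at 419 and 474 CPM and at 415 and 428 CPM. The inputs did not overlap, and the input change was 0.43 (SE 0.08, edgeR adjusted p = 0.000329). The pulldown change was −0.07 (SE 0.09, adjusted p = 0.585). The difference of these changes was −0.51 (SE 0.12, edgeR adjusted p = 0.0126), where 3.77% of genes passed (1.5% higher and 2.27% lower) and none of the other 7 did. This comparison was added after values were seen.

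In siRNA inputs 4 of the 8 genes changed with KCl, where 19.3% of genes did (8.98% higher and 10.3% lower), Ppp1r9b (−1.41, SE 0.16, edgeR adjusted p = 4.73e-07) and Actg1 (−0.25, SE 0.09, adjusted p = 0.0438) downward and Pfn2 (0.49, SE 0.11, adjusted p = 0.0024) and Dbn1 upward. Ppp1r9b stood at 173 and 155 CPM at rest and 69.4 and 51 CPM after KCl. Leaving out a replicate left 1 library in each compared group, and the Ppp1r9b value then lay between −1.58 and −1.30. In these fits Pfn2 lay between 0.47 and 0.52, Dbn1 between 0.42 and 0.45 and Actg1 between −0.35 and −0.14. In siRNA pulldowns Actb (0.37, SE 0.06, edgeR adjusted p = 5.09e-05) and Pfn2 (0.69, SE 0.13, adjusted p = 0.000298) were higher and Ppp1r9b (−0.80, SE 0.18, adjusted p = 0.00168) lower, where 22.2% of genes passed (10.2% higher and 12% lower). Actg1 was also higher there without replicate 2 (0.30) and Ppp1r9a without replicate 1 (0.94).

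The KCl response of the inputs was also compared between siRNA cultures and cultures without siRNA, a comparison added after values were seen. None of the 8 genes differed (Ppp1r9b −0.19, SE 0.36, and Dbn1 0.57, SE 0.32, edgeR adjusted p = 1 for each), where 0.00758% of genes, a single gene, passed. DESeq2 also called 1 gene, and 455 had an unadjusted p under 0.05 in it.

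Resting siRNA inputs, set against resting PSD95-TurboID inputs without siRNA, were higher in Actb by 0.85 (SE 0.19, edgeR adjusted p = 0.0106) and in Actg1 by 0.95 (SE 0.18, adjusted p = 0.0033), where 3.9% of genes passed (1.89% higher and 2.01% lower). After KCl the values were 0.78 (adjusted p = 0.0161) and 0.99 (adjusted p = 0.00182), where 5.32% passed (3.18% higher and 2.14% lower), and Ppp1r9b was lower (−0.91, SE 0.27, adjusted p = 0.0447). With a replicate left out, Actb lay at 0.78 to 0.93 at rest and 0.67 to 0.83 after KCl, and Actg1 at 0.88 to 1.10 and 0.95 to 0.98. Ppp1r9b lay at −1.12 to −0.72 after KCl. Leaving out replicate 1 or 2 left 1 library in each siRNA group, and its spread was taken from the other groups. Without replicate 3, Actb did not pass at rest or after KCl, and Ppp1r9b did not pass after KCl.

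In the pulldowns, 1 of the 8 genes differed from no siRNA at rest, Pfn2 (−0.85, SE 0.25, edgeR adjusted p = 0.0346), where 9.15% passed (4.18% higher and 4.97% lower). After KCl Actb (0.68) and Actg1 (0.98) were higher and Pfn1 (−1.08) and Pfn2 (−0.79) lower, with edgeR adjusted p between 0.000778 (Actg1) and 0.0414 (Pfn1), where 18.9% passed (7.96% higher and 10.9% lower). With a replicate left out, Pfn2 lay at −0.87 to −0.73 at rest. After KCl Actb lay at 0.47 to 0.98, Actg1 at 0.78 to 1.23, Pfn1 at −1.53 to −0.31 and Pfn2 at −1.03 to −0.41. Without replicate 3, which left 2 libraries in each siRNA group, Pfn2 did not pass at rest, and Actb, Pfn1 and Pfn2 did not pass after KCl. The cultures of the 2 experiments also differed in summed marker levels. The 3 interneuron markers summed to 437 to 441 CPM in resting siRNA inputs and 974 to 1311 CPM in resting inputs without siRNA, and the 4 fibroblast markers to 154 to 161 against 347 to 417 CPM, with none of these markers at 0. The 5 mural and smooth muscle markers summed to 323 to 325 CPM, inside the range of 46.2 to 504 CPM without siRNA. The part of these differences in the actin values was not tested. In bulk libraries fewer cells of a type and less RNA per cell cannot be told apart.

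In DHPG cultures all 8 genes were lower in the pulldown, where 79.8% of genes passed (40.5% higher and 39.3% lower). Cfl1 had 1243, 1307 and 1287 CPM in inputs and 297, 322 and 344 CPM in pulldowns (log2 fold change −1.78, SE 0.06, edgeR adjusted p = 6.56e-14). Dbn1 was nearest to 0, with 775, 755 and 741 CPM in inputs and 461, 505 and 598 CPM in pulldowns (−0.33, SE 0.07, adjusted p = 0.000419). Neurabin, with log2 ratios between −0.53 and 0.55 in the other cultures, stood at 62.8, 64.1 and 64.7 CPM in inputs and 36, 34.9 and 38.8 CPM in pulldowns (−0.59, SE 0.09, adjusted p = 4.82e-06). None of these groups overlapped. Without start-proximal segments 7 of the 8 were lower, where 78.4% of all genes passed in either direction, and neurabin was at −0.22 (edgeR adjusted p = 0.073). With the length trend removed all 8 were lower, where 68.5% of all genes passed in either direction, with Cfl1 at −0.76, Pfn1 at −0.48, Pfn2 at −0.42, Ppp1r9a at −1.22 and Ppp1r9b at −1.50. With coding totals in place of TMM factors, the median of all genes moved from 0.05 to −0.16 in this comparison.

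The change of the pulldown ratio with DHPG against resting PSD95-TurboID cultures was a comparison added after values were seen. It was −0.66 for Cfl1 (SE 0.18, edgeR adjusted p = 0.0373) and −0.80 for Pfn2 (SE 0.18, adjusted p = 0.0146), where 6.84% of genes passed (2.62% higher and 4.22% lower). Both lost their calls when the length trend was removed (−0.36 and −0.50, edgeR adjusted p = 0.198 and 0.2). Among the fits without replicate 1, 2 or 3, neither gene passed, at −0.74 to −0.61 for Cfl1 and −1.04 to −0.60 for Pfn2.

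DHPG inputs, set against resting inputs of the KCl experiment, were higher in Actb by 0.79 (SE 0.12, edgeR adjusted p = 0.000156), in Actg1 by 0.99 (SE 0.12, adjusted p = 1.59e-05) and in Cfl1 by 0.58 (SE 0.13, adjusted p = 0.00254). Ppp1r9a was lower (−0.38, SE 0.14, adjusted p = 0.0472), where 32.8% of genes passed (16.3% higher and 16.5% lower), and without start-proximal segments Cfl1 was at 0.22 (adjusted p = 0.206). In pulldowns Actb (0.33) and Actg1 (0.59) were higher and Pfn2 (−0.53) and Ppp1r9a (−0.63) lower, where 47.7% passed (21.7% higher and 26% lower). In the pulldowns Cfl1 was at −0.08 (adjusted p = 0.62) and at 0.30 (adjusted p = 0.0234) with the length trend removed. With a replicate left out, Actb passed in no fit of the pulldowns (0.12 to 0.46), Pfn2 failed without replicate 1 (−0.32) and Ppp1r9a without replicate 2 (−0.54). In inputs Ppp1r9a failed without replicate 2 (−0.39) or replicate 3 (−0.25). The 6 astrocyte markers summed to 219 to 229 CPM in DHPG inputs and 532 to 1056 CPM in resting inputs, with none at 0, and the 4 fibroblast markers to 33 to 34 CPM against 347 to 417 CPM, with 1 at 0 in DHPG inputs. Their part in the actin values was not tested.

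Drebrin has an adult neuronal form, drebrin A, whose extra exon of 138 bases lies at chr13 55476636 to 55476773 and is coding segment 11 of 15 in the longest Dbn1 transcript. The density of counts in this exon over that in the remaining Dbn1 coding sequence was 0.118, 0.0847 and 0.14 in resting PSD95-TurboID inputs. It was 0.277, 0.357 and 0.324 in DHPG inputs, above every other input (the highest was 0.238, from 125 exon counts, in a KCl-treated Pan-TurboID input). In the siRNA inputs it was 0.212 and 0.215 at rest and 0.165 and 0.135 after KCl. The DHPG pulldowns, at 0.161, 0.193 and 0.236, were not above the other pulldowns, which ranged from 0.0503 to 0.353. The exon counts behind these ratios were 8 to 125 per input and 8 to 130 per pulldown, DHPG and experiment cannot be told apart, and the differences were not tested.

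The 103 other actin regulators of a wider list, of which 101 were tested, gave the setting for these values. In resting PSD95-TurboID pulldowns 16 were higher and 24 lower than in inputs, where 11.5% and 13.5% of all genes were, with a median log2 fold change of −0.13 against −0.05 over all genes and −0.68 over the 8 genes. The higher genes with the smallest p were Srgap3 (0.97, edgeR adjusted p = 0.00339), Cyfip2 (1.21, 0.00361) and Nckap1 (1.24, 0.00361), the latter 2 being subunits of the WAVE complex that activates actin branching. The lower genes with the smallest p were Tmsb4x (−1.68, edgeR adjusted p = 0.00321), which encodes a short monomer-sequestering peptide, Tpm3 (−1.02, 0.00403), a tropomyosin, and the actin gene Actc1 (−1.71, 0.00498). Values of the wider list, here and below, are not adjusted for CDS length, which changed the order of the 8 genes. Without replicate 3, edgeR called 0 genes of the whole table in this pulldown comparison.

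With KCl, 7 of the 101 rose and 17 fell in inputs, where 6.32% and 9.03% of all genes did, with a median of −0.14 against −0.01 over all genes. Rac1 (0.58, edgeR adjusted p = 0.00218) and Cdc42 (0.54, 0.0161), small GTPases, and Tmsb10 (0.81, 0.00838), a relative of Tmsb4x, were higher. The kinases Pak1 (−1.16, edgeR adjusted p = 1.59e-06) and Rock2 (−1.35, 5.75e-06), which act upstream of cofilin, and the nucleator Spire1 (−1.24, 7.47e-06) were lower.

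In PSD95-TurboID pulldowns 5 of the 101 rose and 6 fell with KCl, where 3.32% and 3.28% of all genes did, with Brk1 (1.42, edgeR adjusted p = 0.00726), a small WAVE complex subunit, Pdxp (0.94, 0.0198), a cofilin phosphatase, and Tmsb4x (1.18, 0.0247) higher. Spire1 (−1.20, edgeR adjusted p = 0.00256), the kinase Tesk1 (−1.33, 0.00269), which phosphorylates cofilin, and Rock2 (−1.04, 0.0118) were lower. In Pan-TurboID pulldowns 1 rose and 6 fell, where 1.87% and 3.16% of all genes did. Between the ligases, 0 of the 101 passed in edgeR, with 1 at an unadjusted p under 0.05.

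The genes whose group means followed each of the 8 most closely are given as a description, over the 14 groups and 7825 genes, with points that share libraries and depth. Actb was most like Lmo4 (Pearson r of log2 CPM = 0.964) and Crip2 (0.945), and Actg1 was most like Bhlhe22 (0.953) and Lmo4 (0.922). Cfl1 was most like Btf3 (0.990) and Skp1a (0.988), Pfn1 like Atp5o (0.990) and Bex2 (0.987), and Pfn2 like Sqstm1 (0.990). Dbn1 was most like Gatad2b (0.952) and Fbl (0.938), Ppp1r9a like Mtfmt (0.893) and Pex5 (0.882), and Ppp1r9b like Epn1 (0.959) and Ctnnd2 (0.935).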

How the data were processed

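PL-Ribo-seq was measured in 38 libraries. According to their methods, the authors trimmed reads, removed molecular identifiers and aligned to mm10 with Rsubread, and file names carry marks for removed ribosomal RNA and duplicates. Per the file headers, the authors' deposited counts are whole numbers of 5′ read ends (25 to 100 nt, offset 0) per exon segment from plastid. Strand use, treatment of multiply aligned reads and the plastid version are not given in the sources used here. The deposited RPKM values were not used.

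Counts of the longest transcript per gene were summed. Of 67238 coding transcripts, 66664 were matched to GENCODE M21 symbols (22401 genes). Totals of all coding segments, with each transcript counted, were 5906281 to 35643247 per library. CPM is scaled to totals of the longest transcripts. Tests used edgeR 4.0.16 in R 4.3.3 (quasi-likelihood, robust, TMM, filterByExpr, Benjamini-Hochberg at 0.05), with fits of 24, 6, 8, 12 or 20 libraries. Fitted values are TMM-scaled and can differ from CPM ratios. Standard errors come from the fold change and F statistic. Alternatives were DESeq2 1.42.0, the likelihood ratio test of the study, RLE factors, no TMM, no filter, the transcript with the highest count, removal of a CDS length trend, fewer groups, replicate blocks and leaving out replicates.

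Input and pulldown of the same number come from the same ribosome fraction, per the methods. The culture block is a paired analysis on that ground. Deviations from group means correlated at 0.30 to 0.66 in the 12 pairs of the KCl experiment and at −0.18 to 0.05 in the 3 DHPG pairs, and groups of 2 cannot show it. Resting and KCl-treated libraries of the same number correlated at a median of −0.02. None of the 34 replicate pairs agreed within sampling noise (chi-square per gene from 1.53). Precision reported is the spread between replicates, which may be separate cultures of few preparations.

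All 8 genes are named throughout, with Eif4g2 and Dlg4 as checks. Of the wider list, up to 3 genes per direction with the smallest p are named in 4 comparisons, and the 2 genes with the highest correlation to each member, except 1 gene that is not reported here. The drebrin A exon, start-proximal segments, 3 of the 23 comparisons and the exact tests were added after values were seen. The 3 comparisons were the changes of the pulldown ratio with DHPG and with KCl in siRNA cultures, and the siRNA change of the KCl response. Exact tests of shares were run on every gene with at least 20 counts in each of the 24 libraries of the KCl experiment and adjusted over those genes. They take cultures as independent, which those of the same biological replicate may not be. Members and lists were chosen with earlier results of these data known. On simulated counts for the resting PSD95-TurboID comparison (13019 genes), 2 of 100 genes changed by 1.5-fold and 20 of 100 changed by 2-fold were recovered. For KCl in siRNA inputs (12239 genes) it was 36 and 71 of 100. Only 200 genes were changed in each simulation, and 24 were called in the first, against 3259 in the data. The Benjamini-Hochberg cutoff was thus stricter than in the data, and these recoveries can understate those of the real test.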

Additional observations from a re-analysis of the deposited data

Results flagged for a closer look

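In 3 cases the pulldown ratio of a gene differed between conditions by a test of the difference itself, the only results singled out. All 3 come from comparisons that were added after values were seen. The log2 pulldown ratio of Cfl1 was lower in DHPG than in resting PSD95-TurboID cultures by a difference of −0.66 (edgeR quasi-likelihood, Benjamini-Hochberg adjusted p = 0.0373), and that of Pfn2 by −0.80 (adjusted p = 0.0146), where 6.84% of all genes passed. Neither passed in any of the 3 fits that left out a replicate (highest adjusted p = 0.249 and 0.185) or with the trend with CDS length removed (edgeR adjusted p = 0.198 and 0.2), and DHPG and experiment cannot be told apart in both. The ratio of Dbn1 was lower after KCl than at rest in siRNA cultures by −0.51 (edgeR adjusted p = 0.0126), where 3.77% of all genes passed. This comparison held 2 against 2 cultures and could not be fitted with a replicate left out. In PSD95-TurboID cultures without siRNA, the KCl change of the Dbn1 ratio was −0.08 (SE 0.32).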

How the results depend on the processing

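Of 2256 values of the 8 genes recomputed under an alternative, 1941 kept their direction and their side of the threshold, 122 lost their call, 85 gained one, 105 values without a call changed sign and 3 values that had been called, or became called, reversed. Removing the trend with CDS length reversed Pfn2 in the pulldown of resting PSD95-TurboID cultures (0.06), Pfn2 in the pulldown of KCl-treated siRNA cultures (0.03) and Cfl1 between DHPG and resting pulldowns (0.30). The cause was not tested for these or for the counts that follow. Fits that leave out a replicate hold fewer samples, and the part of this in their counts was not tested either. With equally many samples, dropping replicate 1 left 22.4% of all genes called for resting PSD95-TurboID pulldowns against inputs, and dropping replicate 3 left 0%.

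The counts that follow are numbers of the 8 genes past the threshold, each with the percent of all genes tested that passed in the same fit in parentheses. For pulldown against input, resting PSD95-TurboID cultures gave 5 (25%), and 2 (14.3%) with the length trend removed, 2 (22.8%) without start-proximal segments (an alternative added after the data were seen, as wherever it is named) and 8 (41.9%) with the culture as replicate block. KCl-treated PSD95-TurboID cultures gave 3 (12.6%), and 0 (5.28%) with the length trend removed, 1 (11.5%) without start-proximal segments, 0 (0%) from the compared groups alone, 7 (34.6%) with the culture block and 5 (18%) against the mean of both inputs. Resting Pan-TurboID cultures gave 2 (9.6%), and 0 (2.96%) with the length trend removed, 1 (4.27%) without start-proximal segments, 6 (32.4%) from the compared groups alone and 6 (32.9%) with the culture block. KCl-treated Pan-TurboID cultures gave 0 (8.83%), and 2 (14%) by the likelihood ratio test, 1 (9.62%) with RLE factors, 1 (9.36%) with the transcript of the highest count, 3 (17.3%) with DESeq2 and 5 (32%) with the culture block. The culture block moved no call of the comparison between ligases.

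For KCl against rest, inputs gave 2 (15.4%) and 1 (14.5%) with the length trend removed. PSD95-TurboID pulldowns gave 1 (6.6%), and 0 (5.36%) with the length trend removed, 0 (4.79%) without start-proximal segments, 2 (10.6%) with DESeq2 and 0 (1%) from the compared groups alone. Pan-TurboID pulldowns gave 1 (5.03%), and 2 (7.01%) by the likelihood ratio test, 2 (5.03%) with RLE factors, 2 (8.06%) with DESeq2 and 2 (7.56%) with the replicate number as block. siRNA inputs gave 4 (19.3%) and 2 (16.2%) with the length trend removed. The change of the siRNA pulldown ratio gave 1 (3.77%), and 2 (3.89%) with coding totals alone, 3 (3.82%) without the filter, 2 (3.28%) with the length trend removed and 2 (3.46%) without start-proximal segments. DHPG against resting inputs gave 4 (32.8%) and 2 (33.8%) without start-proximal segments, and the DHPG change of the pulldown ratio gave 2 (6.84%), and 4 (10.2%) with coding totals alone, 0 (2.66%) with the length trend removed and 1 (7.6%) without start-proximal segments. siRNA against none gave 1 (9.15%) in resting pulldowns, and 2 (10.2%) with the length trend removed, 2 (12.2%) with DESeq2 and 2 (14.5%) from the compared groups alone, and gave 4 (18.9%) in KCl-treated pulldowns and 0 (1.92%) from the compared groups alone.

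Leaving out 1 replicate number at a time gave 0 to 4 (0% to 22.4%) and 0 to 4 (0.0227% to 13%) for the pulldown against the input of resting and KCl-treated PSD95-TurboID cultures and 0 to 2 (0% to 9.45%) and 0 to 0 (0% to 4.57%) for those of Pan-TurboID. It gave 1 to 3 (3.91% to 16.2%) for KCl in inputs, 0 to 3 (0.689% to 11.2%) in PSD95-TurboID and 0 to 2 (0.545% to 5.48%) in Pan-TurboID pulldowns. It gave 0 to 0 (0% to 0.00757%) for the ligase difference, 0 to 0 (0% to 0%) for the KCl change of the PSD95-TurboID ratio and 0 to 0 (0% to 0.0151%) for the siRNA change of the KCl response. For the pulldown against the input it gave 8 to 8 (72.7% to 77.8%) in DHPG, 6 to 7 (25.8% to 26.2%) in resting siRNA and 5 to 7 (35.9% to 37.6%) in KCl-treated siRNA cultures. For KCl it gave 1 to 1 (4.54% to 4.81%) in siRNA inputs and 4 to 4 (20.9% to 21.5%) in siRNA pulldowns. It gave 3 to 5 (19.5% to 23.1%) for DHPG against resting inputs, 2 to 4 (32.6% to 40.2%) for pulldowns and 0 to 1 (0.285% to 1.68%) for the change of the ratio. For siRNA against none it gave 0 to 1 (0.0151% to 1.28%) and 0 to 1 (0.0753% to 5.03%) in resting and KCl-treated inputs and 0 to 0 (0.888% to 4.77%) and 0 to 1 (0.662% to 14.3%) in pulldowns. In siRNA groups the remaining library was assumed to vary like the other groups, and the KCl change of the siRNA ratio could not be fitted.

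Coding totals in place of TMM factors moved the median log2 change of all genes from −0.09 to −0.32 for DHPG against resting pulldowns and from −0.02 to −0.13 for inputs, where the share of called genes that were higher went from 45.6% to 26.8% and from 49.6% to 36.6%. For the DHPG change of the ratio it moved from −0.05 to −0.18 and that share from 38.4% to 16.8%, and for the siRNA pulldowns against inputs from −0.01 to −0.12 at rest and 0.00 to −0.10 after KCl. Counts over all genes moved by over 1.5 times in 81 cases, among them 3259 genes for resting PSD95-TurboID pulldowns, 5452 with the culture block, 1110 without replicate 2 and 0 without replicate 3. Deviations of same-numbered resting and KCl-treated libraries of the KCl experiment correlated over 0.1 in 4 of 12 pairs, which were all 4 pairs of replicate 2 (0.11 to 0.38), and the replicate number as block raised the count for inputs to 2541 of 13019 genes from 1999. The depth of 2048604 to 14646402 coding counts and groups of 2 or 3 limited what could be detected.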
